A study of Mus musculus with 2 samples.

Results

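The 8 genes described here encode receptors for dying cells and the bridging proteins that join such cells to their receptors: Mertk, Axl, Gas6, Pros1, Timd4, Havcr2, Cd36 and Marco. They were chosen by name, and all 8 were measured among the 27032 genes of the series. The values came from scRNA-Seq of splenic CD11c+ cells of wild-type (WT) mice, in 2 samples called replicates 1 and 2, captured on the BD Rhapsody system after magnetic bead enrichment. The mice of this work were adult, of both sexes and on the C57BL/6J background, without further detail on these samples, and neither sample carries a label for any treatment or deletion. The number of mice pooled in a sample was not stated, so p-values measure only the spread between these 2 samples, which may be technical. The study asked how marginal metallophilic macrophages (MMMs), marked by Siglec1, and Langerin+ cDC1s, marked by Cd207, communicate. Comparisons below include splits of macrophages and cDC1s by these marker genes.

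Cells that die in the spleen display phosphatidylserine, and phagocytes recognise it either directly or through a bridge. MERTK and AXL are receptor tyrosine kinases of the TAM family. They do not touch the lipid themselves but bind soluble proteins whose other end holds phosphatidylserine. GAS6 is such a bridge for both receptors, and protein S (Pros1) for MERTK. TIM-4 (Timd4) and TIM-3 (Havcr2) bind the lipid directly. CD36 and MARCO are scavenger receptors, CD36 for oxidised lipids and apoptotic cells and MARCO for bacteria and particles. In the spleen, red pulp macrophages clear aged red cells, macrophages of the marginal zone filter the blood, and cDC1s take up dead cells and present their antigens to CD8+ T cells.

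Each value was a count of unique molecular identifiers (UMIs), that is, of captured transcripts with amplified copies counted once. Replicate 1 held 3308 cells with 46953398 UMIs and replicate 2 held 3085 cells with 43137746 UMIs, and no cell barcode was shared by both. After the filters on outlying cells, 2928 and 2725 cells remained, of which 2312 and 2123 fell into 1 of 9 classes set by marker UMIs, the first matching gate counting. Macrophages had at least 20 Vcam1 and 5 C1qb UMIs, mature DCs Ccr7 and Fscn1, cDC1s Clec9a and Xcr1, pDCs Siglech and Ccr9, B cells Cd79a, T cells Cd3e, NK cells Ncr1, DCIR2 cDC2s Clec4a4, and CLEC10A cDC2s Clec10a or Cd209a. The classes held 293 and 130 macrophages, 684 and 570 cDC1s, 556 and 456 DCIR2 cDC2s, 484 and 408 CLEC10A cDC2s, 138 and 173 mature DCs, 13 and 19 pDCs, 65 and 172 B cells, 41 and 159 T cells, and 38 and 36 NK cells in replicates 1 and 2. Of the pDCs, 9 of 13 and 12 of 19 also met the gate of another class, so that most of this class was ambiguous. Checked against markers that the gates had not used, all 12 macrophage markers and all 6 markers each of B, T and NK cells were highest in their own class in both samples, as were 7 of 8 for mature DCs, 6 of 8 for cDC1s and 6 of 8 for pDCs. The labels of both cDC2 classes were not borne out in this way, since only 0 of 6 and 1 of 6 of their markers were highest there, and these classes are therefore named only by their gates. Levels are UMIs of a gene per 1000000 UMIs of a class (CPM), so a level is a share of the captured RNA of that class. No levels are compared between genes.

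The 8 genes divided into those led by macrophages and those led by dendritic cells. Mertk, Axl, Gas6, Timd4 and Marco were highest in macrophages in both samples, Havcr2 and Cd36 were highest in cDC1s in both samples, and Pros1 was low everywhere, with its highest mean in pDCs. In the comparison of macrophages with cDC1s, all 8 genes passed the test, 6 higher in macrophages and 2 lower, while 50.4% of all genes tested passed it, so a call on its own says little here. The sizes of the differences set the genes apart, as the plot of levels by class shows.

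**Figure D1:**
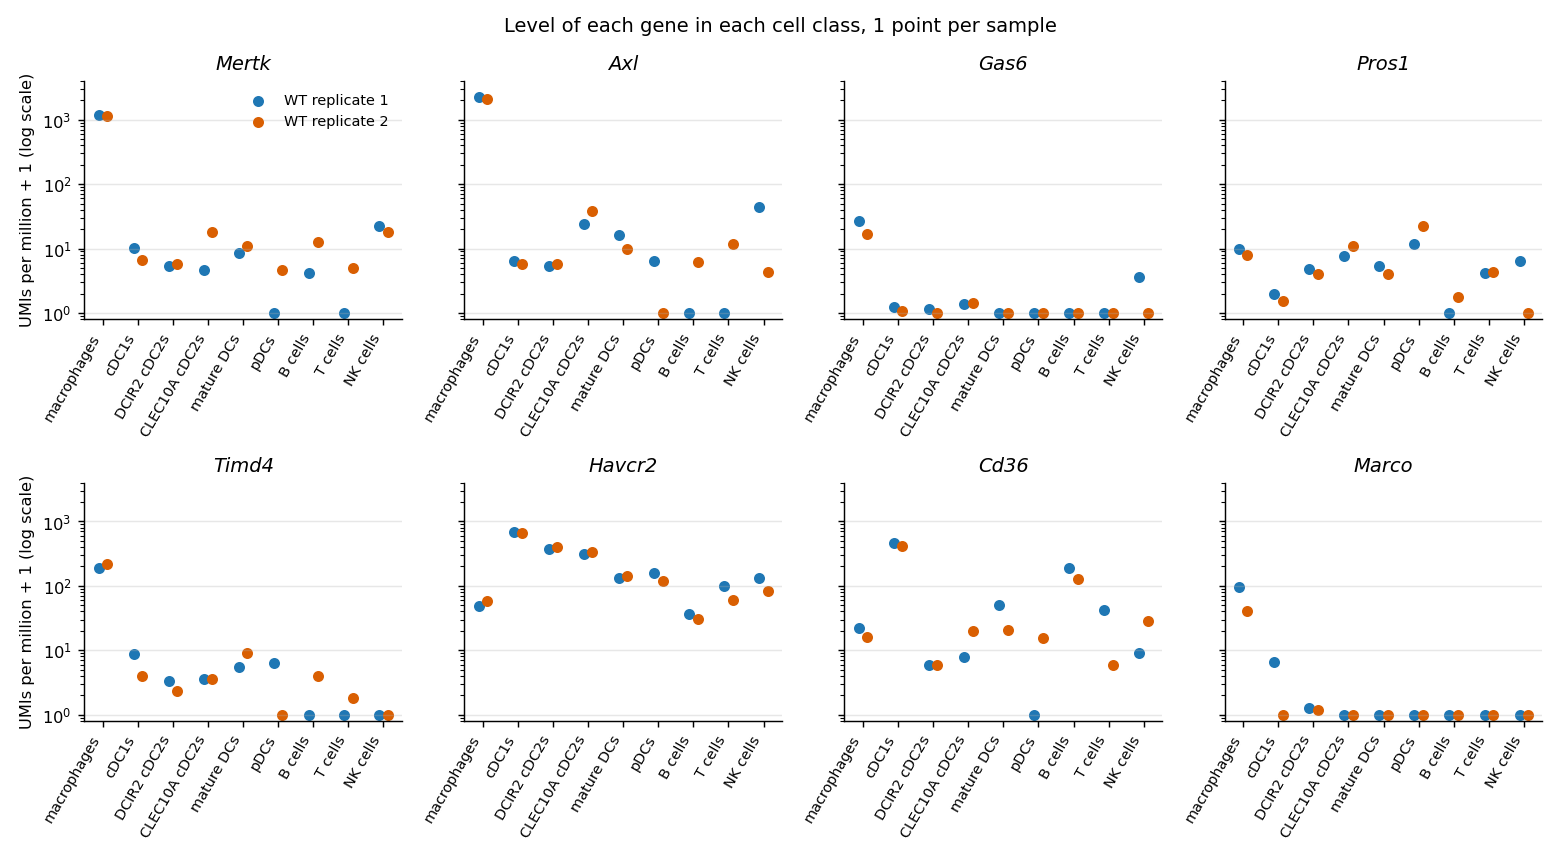
Level of each gene (CPM plus 1, log axis) in each of the 9 cell classes, with 1 point per WT sample. Mertk (1170.2 and 1163 CPM), Axl, Gas6, Timd4 and Marco peak in macrophages, Havcr2 (675 and 653 CPM) and Cd36 (458 and 418 CPM) peak in cDC1s.

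Mertk, the TAM receptor best known for the clearance of apoptotic cells, lies at chr2:128698956-128802894 on the plus strand (GRCm38). Its level in macrophages was 1170.2 CPM in replicate 1 and 1163 CPM in replicate 2, a mean of 1166 ± 5.32 (SD, n = 2). Every other class lay at or below 21.2 CPM. NK cells came next (21.2 and 17.0 CPM), and NK cells, CLEC10A cDC2s, mature DCs, B cells and cDC1s could not be ordered, since the sample values of each overlapped those of the next. cDC1s held 9.19 and 5.59 CPM. The difference between macrophages and cDC1s was 7.25 ± 0.35 on the log2 scale (log2 fold change ± SE, edgeR quasi-likelihood test, Benjamini-Hochberg adjusted p = 8.8e-13).

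A Mertk UMI was found in 98.0% of macrophages in replicate 1 (95% Clopper-Pearson interval 95.6 to 99.2) and in 98.5% in replicate 2 (94.6 to 99.8). Such intervals cover counting error only. T cells, a class that should lack the gene, gave 0% and 1.89% at median depths of 6145 and 6490 UMIs per cell, against 19313 and 18136.5 UMIs in macrophages. With every cell thinned to 3000 UMIs, the share of macrophages was 92.5% and 90%, so that nearly every macrophage carried the transcript at equal depth too. Among cDC1s the thinned share was 1.46% and 1.05%, against 0% (0 of 41 cells) and 1.26% of T cells. It lay above that of T cells in replicate 1 but not in replicate 2, and the source of these UMIs was not tested.

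Within macrophages the Mertk UMIs were spread widely. The median macrophage held 21 Mertk UMIs in replicate 1 and 20.5 in replicate 2, and the 15 and 6 macrophages with the most Mertk UMIs, about 5% of the class, held 12.1% and 10.5% of them. Outside the macrophage gate, 19 kept cells held at least 10 Mertk UMIs. Of these, 5 cells, 4 cDC1s and 1 B cell, had no UMI of Vcam1, C1qb or Axl, yet held 11 to 39 Mertk UMIs among 4470 to 31545 UMIs. The others carried at least 1 of these macrophage transcripts. An antisense gene, Gm14011, and a small nucleolar RNA gene, Gm23172, lie in introns of Mertk, and intronic reads were counted, so a contribution of these genes cannot be told apart if strand was not used.

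Axl, the second TAM receptor of the set, lies at chr7:25757273-25788705 on the minus strand. Macrophages held 2275 and 2117 CPM, a mean of 2196 ± 112 (SD, n = 2). CLEC10A cDC2s followed at 22.9 and 36.8 CPM, overlapping NK cells at 42.4 and 3.40 CPM, and every further pair of neighbours in the order of levels overlapped as well. The difference between macrophages and cDC1s (5.43 and 4.82 CPM) was 8.69 ± 0.33 (log2, adjusted p = 3.6e-14, edgeR), the largest of the 8 genes. All 293 and all 130 macrophages held an Axl UMI, with a median of 43 and 39.5 UMIs per cell. T cells gave 0% (0 of 41 cells) and 6.29%, and cDC1s, which had a greater median depth, gave 5.70% and 5.79%. After thinning, cDC1s gave 1.46% and 1.23%, against 0% and 3.14% of T cells. The thinned share of cDC1s thus lay above that of T cells in replicate 1 but not in replicate 2.

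The low Axl level in cDC1s was set beside the levels of macrophage markers there, and the source of these UMIs was not tested. In cDC1s, Axl stood at 0.238% and 0.228% of its macrophage level, and the median of the 12 macrophage markers stood at 0.241% and 0.248% of theirs. Mertk, at 0.786% and 0.480%, and Timd4, at 4.2% and 1.40%, lay above that median, though within the range of single markers in replicate 1 (0.129% to 6.56%). In replicate 2 that range ended at 1.28%, below the value of Timd4. Of the 104 Timd4 UMIs of cDC1s in replicate 1, 69 lay in 1 cell, described below. Without that cell the Timd4 level of cDC1s in replicate 1 was 2.64 CPM in place of 7.84 CPM.

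The bridging proteins were scarce in these cells. Gas6, on chr8:13465374-13494490 (minus strand), gave 142 and 39 UMIs in macrophages, 25.7 and 15.9 CPM. All cDC1s together gave 3 and 1 UMIs, so that the ratio of CPM over both samples was 142 (counting interval 54.6 to 528). The edgeR difference was 6.75 ± 0.64 (log2, adjusted p = 2.1e-07). Mature DCs, pDCs, B cells and T cells gave no Gas6 UMI in either sample, a count that at 3 UMIs per sample leaves macrophages at least 13.6-fold and 10.6-fold higher than mature DCs but only at least 1.61-fold and 1.47-fold higher than pDCs. A Gas6 UMI was found in 25.6% and 12.3% of macrophages, and thinning to 3000 UMIs left 5.46% and 3.85%. The 3′ end of Gas6 overlaps exons of Tmem255b on the opposite strand, and without knowledge of the strand used in counting the assignment of these few UMIs is uncertain.

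Pros1, which encodes protein S, lies at chr16:62854307-62929346 (plus strand) and showed no single leading class. pDCs had the highest mean, 10.7 and 21.7 CPM, but from 2 and 6 UMIs. CLEC10A cDC2s held 6.59 and 10.04 CPM and macrophages 8.86 and 6.93 CPM, ranges that overlapped. cDC1s held 0.980 and 0.508 CPM, below macrophages by 3.33 ± 0.50 on the log2 scale (adjusted p = 1.3e-05, edgeR). The share of macrophages with a Pros1 UMI was 10.9% and 10.8%, against 0% and 0.581% of B cells, and thinning to 3000 UMIs left 2.39% and 3.08%, against 0% and 0.585% of B cells, 0.292% and 0.351% of cDC1s, and 2.44% (1 of 41 cells) and 0% of T cells.

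TIM-4 and TIM-3 are encoded by genes of the TIM family in the same region of chromosome 11, both on the plus strand, Havcr2 at chr11:46454935-46481255 and Timd4 at chr11:46810800-46844332. Their levels ran in opposite directions between macrophages and cDC1s. Timd4 stood at 187 and 217 CPM in macrophages and at 7.84 and 3.05 CPM in cDC1s, a difference of 5.14 ± 0.29 (log2, adjusted p = 2.5e-11, edgeR). Havcr2 stood at 47.7 and 57.5 CPM in macrophages and at 675 and 653 CPM in cDC1s, so that it was lower in macrophages by a log2 difference of -3.71 ± 0.18 (adjusted p = 7.6e-13, edgeR). For neither gene did the samples of both classes overlap.

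The 250 bases before each RefSeq start site (GRCm38.p6, plus strand) are shown because the pair differed most clearly in direction. Motifs matched on either strand are in capitals.
Timd4, chr11:46810549-46810798: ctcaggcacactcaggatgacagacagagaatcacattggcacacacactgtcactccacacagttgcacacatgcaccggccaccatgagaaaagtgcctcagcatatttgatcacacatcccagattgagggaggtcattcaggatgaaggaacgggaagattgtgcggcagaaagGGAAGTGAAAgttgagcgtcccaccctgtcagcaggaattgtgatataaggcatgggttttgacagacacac
Havcr2, chr11:46454681-46454930: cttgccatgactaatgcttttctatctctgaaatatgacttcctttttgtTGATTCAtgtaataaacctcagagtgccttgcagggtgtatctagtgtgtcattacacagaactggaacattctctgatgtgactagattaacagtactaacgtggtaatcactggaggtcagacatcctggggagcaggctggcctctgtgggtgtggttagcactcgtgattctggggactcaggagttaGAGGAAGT
A window from 250 bases before to 50 bases after each start was searched on both strands for 3 motifs: PU.1 (GAGGAAGT), a PU.1-IRF composite (GGAA and GAAA parted by any 2 bases) and AP-1 (TGANTCA). The Timd4 window held the composite motif, beginning at position -72 from the start. The Havcr2 window held AP-1 at -200 and PU.1 at -8. No further match was found in these windows, and none in those of the remaining 6 genes. The Cd36 window, chr5:17835847-17836146, lay inside the gene, so the annotated 5′ end of Cd36 (position 17888801) was not searched. Over all 32851 RefSeq promoters of that length, 3.2% held the PU.1 letters, 2.72% the composite and 7.81% AP-1. A match describes letters and is not evidence of binding.

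Timd4 UMIs were found in many but not all macrophages, which at this depth does not show that the others lacked the transcript. A Timd4 UMI was found in 70.6% (65.1 to 75.8) and 70.8% (62.2 to 78.4) of macrophages, and in 34.5% and 36.2% after thinning, against 0% and 0.629% of T cells. The median macrophage held 2 UMIs and the highest cell 41 in replicate 1 and 87 in replicate 2. The 15 and 6 macrophages with the most UMIs held 23.9% and 32.1% of all Timd4 UMIs of the class. Macrophages without a Timd4 UMI held Mertk at 1159.7 CPM against 1174 CPM with one in replicate 1 and at 1157 against 1165 CPM in replicate 2. Axl stood at 2249 against 2284 CPM and at 1836 against 2232 CPM. The cells without a Timd4 UMI had median depths of 15248 and 17998 UMIs, against 20603 and 18155 UMIs in those with one.

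Havcr2, an inhibitory receptor of T cells that is also known from CD8+ dendritic cells, followed an order across all DC classes. DCIR2 cDC2s held 368 and 399 CPM and CLEC10A cDC2s 316 and 330.2 CPM, and neither overlapped cDC1s, nor did these 2 classes overlap each other. Mature DCs held 132 and 143 CPM and overlapped pDCs at 155 and 119 CPM. NK cells (133 and 81.5 CPM) and T cells (99.8 and 59.5 CPM) overlapped in turn, macrophages lay below them, and B cells were last at 36.1 and 29.5 CPM. A Havcr2 UMI was found in 97.8% (96.4 to 98.8) and 98.1% (96.6 to 99.0) of cDC1s, in 87.8% and 89.7% of DCIR2 cDC2s and in 78.1% and 82.8% of CLEC10A cDC2s. B cells, taken as the class that should lack it, gave 16.9% and 14% at median depths of 7677 and 6981.5 UMIs, and macrophages gave 38.9% and 42.3%. At 3000 UMIs per cell the shares were 79.4% and 76.3% of cDC1s, 11.9% and 13.1% of macrophages and 6.25% and 7.60% of B cells.

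Cd36, the scavenger receptor, lies at chr5:17781690-17888801 on the minus strand. cDC1s held 458 and 418 CPM, a mean of 438 ± 28.0 (SD, n = 2). B cells came second at 189.9 and 128 CPM, overlapping neither cDC1s nor mature DCs. The 29 B cells of replicate 2 that the filters removed held 426 CPM. Without the filter on deviations, B cells stood at 213 and 182 CPM. Mature DCs held 48.6 and 19.5 CPM, and the classes from there down to DCIR2 cDC2s (4.84 and 4.83 CPM) overlapped each with the next. Macrophages, at 20.8 and 15.1 CPM, lay below cDC1s by a log2 difference of -4.59 ± 0.39 (adjusted p = 4.2e-09, edgeR). A Cd36 UMI was found in 94.0% and 92.8% of cDC1s and in 16.7% and 13.1% of macrophages. At 3000 UMIs per cell, macrophages gave 3.75% and 6.92%, T cells 4.88% (2 of 41 cells) and 1.26%, and DCIR2 cDC2s 1.08% and 0.659%. The share of macrophages thus lay above that of DCIR2 cDC2s in both samples, and above that of T cells in replicate 2 but not in replicate 1.

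Marco, the scavenger receptor of marginal zone macrophages, lies at chr1:120474538-120505024 on the minus strand. Its UMIs were concentrated in few macrophages. The class held 96.2 and 40.4 CPM (532 and 99 UMIs), but a Marco UMI was found in only 21.2% (16.6 to 26.3) and 17.7% (11.6 to 25.4) of its cells. CLEC10A cDC2s, mature DCs, pDCs, B cells, T cells and NK cells gave no Marco UMI in either sample. Against 3 UMIs per sample, macrophages were at least 175-fold and 63.0-fold higher than CLEC10A cDC2s and at least 6.02-fold and 3.73-fold higher than pDCs. DCIR2 cDC2s gave 2 and 1 UMIs, a ratio of CPM over both samples of 349 (119 to 1696). In cDC1s, replicate 1 gave 74 UMIs and replicate 2 gave 0 in 570 cells, a result that leaves room for 0.526% of cells with a UMI at a floor of 3 counts and for 0.645% by the Clopper-Pearson bound. Of the 74 UMIs, 73 lay in 2 cells.

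**Figure D2:**
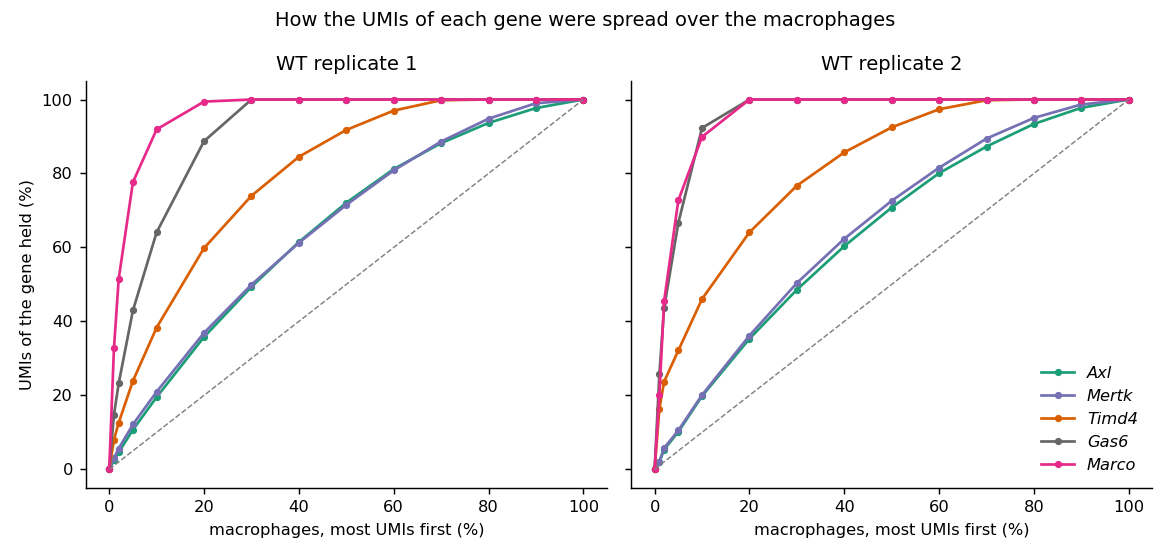
Cumulative share of the UMIs of 5 genes (y axis, %) over the macrophages of each WT sample, ordered from the most to the fewest UMIs of that gene (x axis, % of cells), with the dashed line marking an even spread. In the 15 and 6 macrophages with the most UMIs, about 5% of the class, lay 77.6% and 72.7% of the Marco UMIs but only 10.7% and 10.1% of the Axl UMIs.

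The macrophages with a Marco UMI were set beside those without, as a description chosen after the values were seen. The 62 and 23 cells with Marco held more Timd4 (252 and 440.4 CPM) than the 231 and 107 cells without (167 and 159.8 CPM). Fcna, a ficolin of macrophages, stood at 4034 against 2725 CPM in replicate 1 and at 4075 against 2331 CPM in replicate 2. Hmox1, the haem-degrading enzyme of red pulp macrophages, stood at 6165 against 4751 CPM and 6165 against 4647 CPM. Cd5l (1066 against 751 CPM and 965 against 595 CPM) and Adgre1 (1045 against 1022 CPM and 1055 against 935 CPM) were also higher with Marco. Spic, the transcription factor of red pulp macrophages, was lower, at 1874 against 2013 CPM and 1609 against 2023 CPM. Cd163 was lower too, at 352 against 395 CPM and 110 against 338 CPM. Mertk was likewise lower with Marco, at 1057 against 1205 CPM and 1117 against 1174 CPM. Axl did not follow the split in 1 direction, at 2162 against 2310.0 CPM in replicate 1 and 2264 against 2080.0 CPM in replicate 2. Siglec1 did not follow it either, at 30.7 against 46.1 CPM and 34.03 against 31.8 CPM. Cd209b, a lectin of marginal zone macrophages, had no UMI in the cells with Marco and 0 and 1 UMIs in those without. Cells with a Marco UMI were also deeper, with medians of 21346.5 and 23295 UMIs against 18647 and 17867.

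The erythroid markers, 4 of 4 detected in macrophages, were summed at 2375 and 637 CPM in macrophages and at no more than 61.1 CPM in every other class, and the part of ingested or attached red cell RNA in the macrophage values was not tested. Cells removed by the filters included 65 and 31 macrophages, with median depths of 26325 and 39172 UMIs. They held more Marco (172 and 108 CPM against 96.2 and 40.4 CPM), more Havcr2 (102 and 120.5 CPM) and more Cd36 (66.1 and 52.5 CPM) than the macrophages kept, and less Axl (1592 and 1657 CPM). Cells in no class held Mertk at 18.2 and 24.3 CPM, Axl at 37.7 and 40.1 CPM and Havcr2 at 289 and 329 CPM.

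The macrophages were next compared with the mean of all 5 DC classes, averaged on the log2 scale. Of the 8 genes, 6 were higher in macrophages, Havcr2 was lower and Cd36 did not pass, while 50.9% of all genes passed the test. The macrophage sums and the cDC1 sums are the same as in the first comparison, so the 2 comparisons are not independent. Axl differed by 8.37 ± 0.19, Mertk by 7.74 ± 0.22, Timd4 by 6.03 ± 0.23 and Havcr2 by -2.30 ± 0.16 on the log2 scale. Pros1 differed by 1.02 ± 0.36 (adjusted p = 0.022, edgeR) and lost the call without either sample (adjusted p = 0.61 without replicate 1 and 0.36 without replicate 2). Cd36 differed by -0.26 ± 0.47 (adjusted p = 0.70), and its sign rested on the sample (-0.67 without replicate 1 and 1.47 without replicate 2). Marco passed in both comparisons with edgeR (4.56 ± 0.75 against cDC1s, adjusted p = 1.4e-04), but not with DESeq2 (adjusted p = 0.56 and 0.15).

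**Figure D3:**
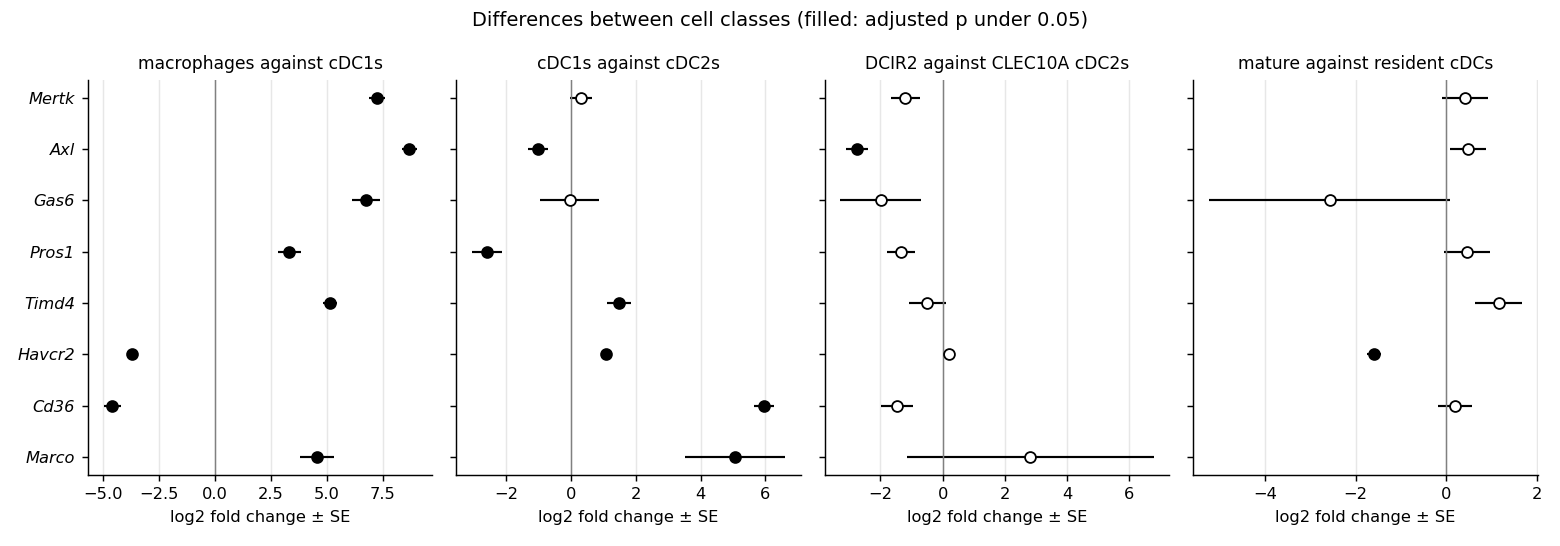
Log2 fold changes (x axis, ± SE from edgeR) of the 8 genes (y axis) in 4 comparisons between cell classes, with filled circles for an adjusted p under 0.05. Marco is not drawn for mature DCs, which held no Marco UMI. Axl (8.69) and Mertk (7.25) lie far to the right and Cd36 (-4.59) and Havcr2 (-3.71) to the left in macrophages against cDC1s.

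Other genes of apoptotic cell uptake were taken from 7 lists of 99 genes, of which 89 were tested. Against cDC1s, 56 of the 89 were higher in macrophages, 9 were lower and 24 did not pass, with a median log2 difference of 1.06 against -0.04 over all genes. Of all genes tested, 25.1% were higher and 25.3% lower. Of the other receptors and bridges tested, 15 of 19 were higher and 0 lower (median 4.14). They included C1qc (9.17 ± 0.57) and C1qa (8.76 ± 0.53), subunits of the complement protein that coats dying cells. Neither is independent of the macrophage gate, which required UMIs of C1qb, a subunit of the same protein. Of the genes for cholesterol handling and nuclear receptors after uptake, 10 of 15 were higher and 0 lower (median 3.30), with the cholesterol exporter Abca1 at 7.88 ± 0.28. Phagosome and digestion genes were higher in 15 of 18 cases and lower in 1. Of the signals against uptake and their receptors, 5 of 7 were higher and 2 lower, of the receptors for signals that dying cells release, 2 of 6 were higher and 2 lower, and of the genes of TAM signalling, 3 of 9 were higher and 1 lower. Of the engulfment genes downstream of the receptors, 6 of 15 were higher and 3 lower, with a median of -0.11. Among them Dock5 was lower at -2.22 ± 0.17. The shares called among engulfment and TAM signalling genes lay near that of all genes and are no result about these lists. Genes lower in macrophages also included the lysolipid receptor Gpr132 (-4.19 ± 0.18), the nucleotide receptor P2ry6 (-4.10 ± 0.28) and Cd24a, a signal against uptake (-4.13 ± 0.24). All of these had an adjusted p under 0.05 with edgeR.

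cDC1s were compared with the mean of both cDC2 classes. Among the 8 genes, 4 were higher in cDC1s, 2 were lower and 2 did not pass, and 36% of all genes passed. Cd36 gave the largest difference, 5.95 ± 0.31 (log2, adjusted p = 8.9e-12), with 458 and 418 CPM in cDC1s against at most 19.2 CPM in either cDC2 class. Havcr2 differed by 1.08 ± 0.13 (adjusted p = 8.0e-07). Pros1 was lower in cDC1s by -2.60 ± 0.46 (adjusted p = 1.2e-04), a call that was lost without replicate 2 (-2.14, adjusted p = 0.11). Axl was lower by -1.01 ± 0.31 (adjusted p = 0.015) and lost the call without replicate 1 (adjusted p = 0.092), without replicate 2 (adjusted p = 0.44) and with DESeq2 (adjusted p = 0.24). Mertk did not pass (0.30 ± 0.34, adjusted p = 0.54), and its sign rested on the sample, at -0.53 without replicate 1 and 1.36 without replicate 2 (adjusted p = 0.0087 in the latter). Gas6 did not pass (-0.04 ± 0.91). Of the 89 list genes, 20 were higher in cDC1s, 30 were lower and 39 did not pass, with a median of -0.21 against 0.0034 over all genes, of which 18.5% were higher and 17.5% lower. The higher ones were led by Cd24a (3.81 ± 0.17) and the lower ones by Sirpa (-4.18 ± 0.25), the receptor for CD47, and by Cd300ld (-4.10 ± 0.25) and Cd300lf (-3.90 ± 0.21).

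The calls of Marco and Timd4 in cDC1s rested on 1 cell. Marco was called higher in cDC1s (5.06 ± 1.55, adjusted p = 0.020), as was Timd4 (1.477 ± 0.36, adjusted p = 0.0030). A cell of replicate 1 that met the cDC1 gate with 2 Clec9a and 1 Xcr1 UMIs held 59 of the Marco and 69 of the Timd4 UMIs of the class, with 34 Siglec1, 14 Spic, 9 Vcam1 and 2 Cd209b UMIs but 0 of C1qb, Axl and Adgre1, among 30666 UMIs. Without this cell, an alternative chosen after its values were seen, Marco gave 2.85 (adjusted p = 0.15) and Timd4 0.53 (adjusted p = 0.20), and neither was called. The differences between macrophages and cDC1s then rose to 6.77 for Marco and 6.09 for Timd4. Without replicate 1, Marco turned to -1.04 and Timd4 fell to 0.87 (adjusted p = 0.37). In all deposited cells, 5 held at least 10 Siglec1 UMIs, and the other 4 were macrophages that the filters had removed. One of them resembled it, with 134 Timd4, 54 Marco, 48 Siglec1 and 1 Axl UMI among 45123 UMIs.

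Within cDC1s, Havcr2 and Cd36 varied with genes that mark cDC1 subsets, again as a description after the values were seen. cDC1s with a Ccr2 UMI held less Havcr2 than those without, at 476 against 728 CPM in replicate 1 and 491 against 704 CPM in replicate 2. They also held less Cd36, at 348 against 487 CPM and 314 against 451 CPM. cDC1s with a UMI of Itgae, the integrin CD103, held more Havcr2 (837 against 593 CPM and 769 against 560.0 CPM) and more Cd36 (495 against 438 CPM and 478 against 370 CPM). The cDC1s with Ccr2 had median depths of 18358 and 19514 UMIs against 20055 and 21363, and those with Itgae 21557.5 and 22986.5 against 18483.5 and 19165.5. When cDC1s were split into 3 groups by depth, Havcr2 lay between 585 and 722 CPM and Cd36 between 374 and 468 CPM.

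**Figure D4:**
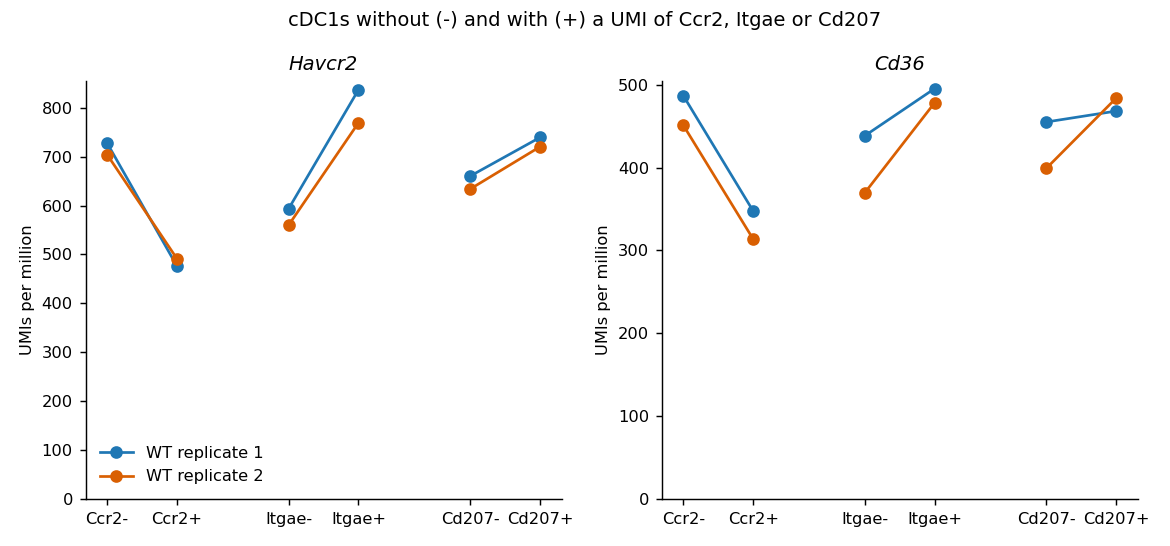
Levels (CPM, linear axis from 0) of Havcr2 (left) and Cd36 (right) in cDC1s without and with a UMI of Ccr2, Itgae or Cd207, with lines joining the values of a WT sample. Both genes are lower with Ccr2 (Havcr2 476 against 728 CPM in replicate 1) and higher with Itgae (837 against 593 CPM) in both samples, and the Cd207 split is smaller.

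The classes were then split by the marker genes of the study's question. A Siglec1 UMI in a class gated on Vcam1 and C1qb does not by itself mark an MMM. The cells richest in Siglec1, described above, were not among the kept macrophages. Of macrophages, 112 and 56 held a Siglec1 UMI and 181 and 74 did not, and of cDC1s, 116 and 113 held a Cd207 UMI. Between Siglec1+ and Siglec1- macrophages, 0 of the 8 genes passed with edgeR, 0 had an unadjusted p under 0.05 and 0 passed with DESeq2, where 0.0083% of all genes passed with edgeR. Mertk stood at 1207 and 1229 CPM in Siglec1+ macrophages and at 1144 and 1109 CPM in the others, a difference of 0.10 ± 0.25 (log2). Axl differed by 0.16 ± 0.24, Timd4 by 0.04 ± 0.24, Marco by 0.46 ± 0.62 and Cd36 by 1.02 ± 0.54. Between Cd207+ and Cd207- cDC1s, 0 of the 8 passed with edgeR and 0 with DESeq2, where 0.207% of all genes passed with edgeR, and 2 had an unadjusted p under 0.05. These were Mertk (-1.33 ± 0.58, unadjusted p = 0.032) and Pros1, which had no UMI in Cd207+ cDC1s of either sample (unadjusted p = 0.018). A Mertk UMI was found in 2.59% and 2.65% of Cd207+ cDC1s and in 3.35% and 3.28% of the others. Over all cDC1s, 4 cells held 88 of the 122 Mertk UMIs in replicate 1, and 2 cells held 29 of the 66 in replicate 2. Havcr2 stood at 739 and 720.1 CPM in Cd207+ cDC1s and at 660.1 and 634 CPM in the others (0.26 ± 0.15), and Cd36 at 468 and 484 against 455 and 399 CPM (0.25 ± 0.29). The error of these differences leaves room for changes of the size of the SE and more, and the absence of a call does not show equal levels. Without 1 library in turn, the number of all genes called went from 0 to 4 in the Siglec1 split and from 3 to 6 in the Cd207 split.

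Between the cDC2 classes, Axl was the only 1 of the 8 genes that passed, while 5.54% of all genes did. DCIR2 cDC2s held 4.28 and 4.83 CPM and CLEC10A cDC2s 22.9 and 36.8 CPM, a log2 difference of -2.75 ± 0.35 (adjusted p = 6.1e-05, edgeR). Havcr2 differed by 0.19 ± 0.15 (adjusted p = 0.65). Mertk, at 3.66 and 17.1 CPM in CLEC10A cDC2s, differed by -1.20 ± 0.46 (adjusted p = 0.16, edgeR). Its difference was -1.89 without replicate 1 and had the opposite sign without replicate 2 (0.15). In replicate 2, 2 of the 408 CLEC10A cDC2s held 45 of the 80 Mertk UMIs of the class. Both cells carried UMIs of Vcam1, C1qb and Axl. Markers of macrophages moved with Axl. The 12 macrophage markers, none at 0 over both samples in either class, summed to 567 and 668 CPM in CLEC10A cDC2s and to 303 and 307 CPM in DCIR2 cDC2s, against 28667 and 26560.3 CPM in macrophages. In CLEC10A cDC2s, Axl stood at 1.01% and 1.74% of its macrophage level and the median marker at 1.00% and 1.65% of its own. Their part in the result was not tested.

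In replicate 2, 6 of the 408 CLEC10A cDC2s held 94 of the 172 Axl UMIs of the class, while in replicate 1 no cell of the class reached 10 Axl UMIs. With the looser macrophage gate, the level in CLEC10A cDC2s was 21.6 and 26.8 CPM. Axl was found in 11.6% and 8.58% of CLEC10A cDC2s, and in 5.18% and 5.39% after thinning. The 56 and 35 CLEC10A cDC2s with an Axl UMI were set beside the remaining ones for a few myeloid genes, a split chosen after the values were seen. They were deeper, with medians of 12552.5 and 14760 UMIs against 10617 and 10486. Lyz2, the lysozyme of myeloid cells, stood at 3558 against 569.9 CPM in replicate 1 and at 7304 against 745 CPM in replicate 2. Csf1r, the receptor of the macrophage growth factor, stood at 506 against 251 CPM and 882 against 249 CPM. C1qa stood at 28.6 against 1.26 CPM and 266 against 1.93 CPM. Of the 89 list genes tested, 24 were lower in DCIR2 cDC2s and 1 was higher, with a median of -0.27 against 0.0015 over all genes, of which 3.55% were lower and 1.99% higher. The higher gene was Cd300lf (0.71 ± 0.19), an inhibitory receptor for phosphatidylserine. Lrp1, a receptor for calreticulin on dying cells, was lower in DCIR2 cDC2s by -1.59 ± 0.20 and Cx3cr1, the fractalkine receptor, by -2.65 ± 0.36.

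Maturation and the pDC class were compared with the mean of the 3 resident cDC classes. In mature DCs, Havcr2 was lower by -1.60 ± 0.15 (adjusted p = 4.1e-08, edgeR) and was the only 1 of the 8 genes called, while 33.2% of all genes passed. Timd4 differed by 1.15 ± 0.52 (adjusted p = 0.10). It was called without the cell rich in Siglec1 described above (1.47, adjusted p = 0.0095, edgeR), and the difference was 1.92 without replicate 1. These values came from 7 and 16 Timd4 UMIs in mature DCs. Of the 16 UMIs in replicate 2, 10 lay in 1 cell. Cd36 did not pass (0.19 ± 0.38, and -0.73 without replicate 1). Of the 89 list genes, 24 were higher and 17 lower in mature DCs, against 18.2% and 15% of all genes, among them the lysosomal membrane protein Lamp1 (2.22 ± 0.11) and P2ry6 (-2.18 ± 0.26). Within the class, the 5 and 11 mature DCs that also met the cDC1 gate held 294 and 108 CPM of Cd36, and the others 26.8 and 11.5 CPM. Mature DCs with an Il12b UMI (21 and 39 cells) held Havcr2 at 11 and 42.9 CPM, and those without at 157 and 177 CPM, a split made after the values were seen. The value of the 21 cells in replicate 1 rests on few Havcr2 UMIs.

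In pDCs, 1 of the 8 genes was higher, Pros1 (2.42 ± 0.70, adjusted p = 0.032), and 1 was lower, Havcr2 (-1.87 ± 0.21, adjusted p = 4.9e-06), while 9.66% of all genes passed. The pDC class is the smallest, and its 2 and 6 Pros1 UMIs carried the call, which was lost without either sample (adjusted p = 0.11 without replicate 1 and 0.63 without replicate 2) and with cells that met several gates left out (0.76, adjusted p = 0.84). Of the 89 list genes, 14 were higher in pDCs and 10 lower, against 4.91% and 4.76% of all genes, led by the protease Ctsl (3.74 ± 0.44) and by Gpr132 (-1.44 ± 0.17). The median of all genes lay at -0.16 with edgeR and at -0.01 with DESeq2, and 50.8% of called genes were higher in pDCs with edgeR but 65.4% with DESeq2.

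In B cells, Cd36 went with higher levels of some genes known from marginal zone B cells, but not of Ighm, which such cells are also known to carry at high level. A Cd36 UMI was found in 43.1% (30.8 to 56.0) of B cells in replicate 1 and in 25.6% (19.2 to 32.8) in replicate 2, and in 21.9% and 12.9% after thinning, against 4.88% and 1.26% of T cells. B cells with Cd36, split after the values were seen, held more Cr2, the complement receptor CD21, at 1612 against 429 CPM in replicate 1 and 1539 against 467 CPM in replicate 2. They held more Fcrl5 (379.7 against 105 CPM and 381 against 99.4 CPM) and more S1pr3, the sphingosine phosphate receptor that positions marginal zone B cells (81.4 against 13.1 CPM and 104 against 4.57 CPM). Fcer2a, the follicular B cell marker CD23, was lower with Cd36, at 244 against 311 CPM and 206 against 562 CPM, as was Ighd, at 503 against 1045 CPM and 801 against 1612 CPM. Ighm, the IgM heavy chain, was lower as well, at 10716 against 27680 CPM in replicate 1 and 4013 against 6580 CPM in replicate 2. These 9 genes were not a list tested as such, and the split is a description. The B cells with Cd36 were deeper, with medians of 10516.5 and 9414.5 UMIs against 6729 and 6045.

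**Figure D5:**
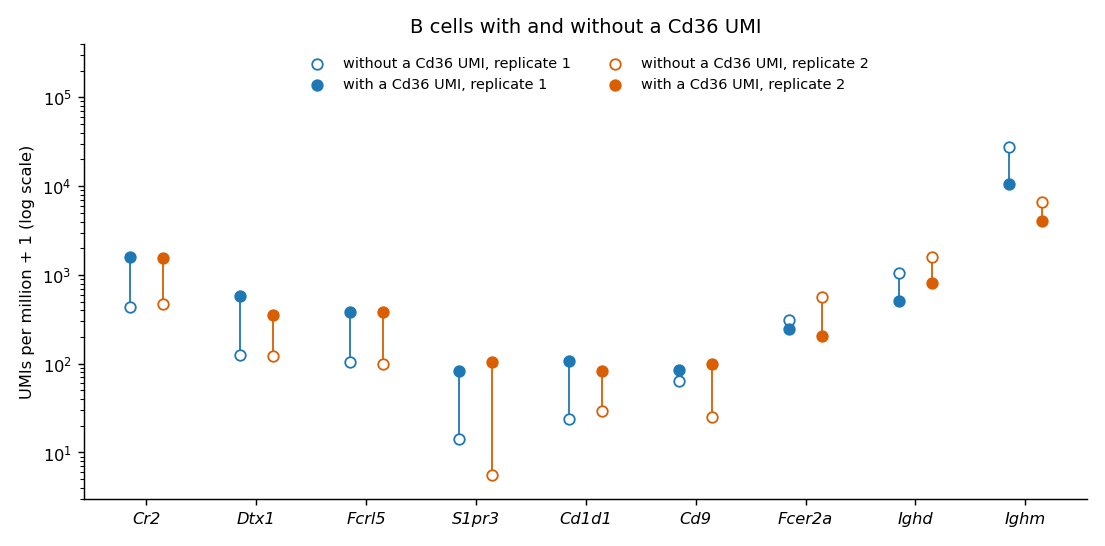
Levels (CPM plus 1, log axis) of 9 B cell genes in B cells with (filled) and without (open) a Cd36 UMI, in each WT sample. Cr2 (1612 against 429 CPM in replicate 1), Dtx1, Fcrl5, S1pr3, Cd1d1 and Cd9 are higher with Cd36, and Fcer2a, Ighd and Ighm (10716 against 27680 CPM in replicate 1) are lower, in both samples.

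For each gene, the genes with the most similar pattern were taken by Pearson correlation of log2(CPM + 1) over the 18 sums of class and sample, among the 8782 genes with at least 20 CPM in 1 class in both samples. The sums share their samples and some classes their cell type, so the values describe likeness and were not tested. Mertk was most like Itgb5 (r = 0.94), an integrin chain of the MFG-E8 receptor, and Axl was most like Zfp703 (r = 0.95), with Itgb5 among its 5 nearest (r = 0.94). Timd4 was most like Ftl1-ps1 (r = 0.94), a ferritin pseudogene that shares reads with Ftl1 and is uncertain, with Spic, the transcription factor of red pulp macrophages, at r = 0.93. Marco was most like Tgm1 (r = 0.96). Gas6 was most like Cmbl (r = 0.97), Havcr2 most like Arpc3 (r = 0.94) and Dock5 (r = 0.92), Cd36 most like Hepacam2 (r = 0.84) and Pros1 most like Ccpg1 (r = 0.86). Among the 8 genes themselves, r was 0.90 between Mertk and Axl and 0.91 between Axl and Gas6, but 0.15 between Mertk and Pros1. Havcr2 and Cd36, both highest in cDC1s, gave 0.04.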

How the data were processed

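The deposited counts were UMIs per cell and gene, which the authors made with the BD Rhapsody WTA Analysis Pipeline 1.12.1 on GRCm38 with GENCODE vM19, corrected for sequencing errors and with intronic reads counted. R 4.2.3 and Seurat 4.3.0.1 are named in the submitters' processing notes. Gene positions came from a GENCODE annotation of GRCm38 and promoter sequences from RefSeq, in which all 8 genes matched.

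Cells with at least 200 genes and within 3 median absolute deviations of the sample's mean for UMIs, genes and mitochondrial share were kept (5653 of 6393). No doublet caller was run, and cells that met several gates were left out in an alternative. Because cells are not replicates, UMIs were summed per class and sample and tested with edgeR 4.0.16 (R 4.3.3), using the quasi-likelihood test, TMM scaling, filterByExpr and Benjamini-Hochberg adjustment over all genes tested (11903 from 18 sums, and 12049 from 22 sums for the Siglec1 and Cd207 splits), with a threshold of 0.05. The 14 gate genes were left out of the fits. SEs were derived from the fold change and the F statistic of the test (log2 value over root F). A mean of classes was taken on the log2 scale. Comparisons share classes and so are not independent. The class sums of a replicate come from the same sample and are thereby paired. Their deviations from the class means correlated between -0.04 and 0.14, with 3 of 36 pairs over 0.1. For shares of cells, each cell was thinned to 3000 UMIs and shallower cells were left out. Floors for a count of 0 used 3 UMIs.

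The 8 genes, the gates and the lists were chosen with earlier results of these data known. List genes were named where they were among the 4 largest called changes in a direction, changed alike in both samples and reached 20 CPM in the higher group. Alternatives were RLE scaling, DESeq2 1.42.0, no filter on low counts, no filter on deviations, a looser macrophage gate of 5 Vcam1 and 2 C1qb UMIs, at least 2 UMIs for a split, a replicate block and each sample left out. The fitting script was tested on simulated data. Between the replicates, counts differed beyond sampling noise in every class. Sample tags of other samples in the file headers were not analysed here. One gene of the lists is not reported here.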

Additional observations from a re-analysis of the deposited data

How the results depend on the processing

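Of 25 called values of the 8 genes, 17 stayed past the threshold under every alternative run, among them Mertk (6.95 to 7.62) and Axl (8.57 to 9.14) in macrophages against cDC1s. The called Marco value of cDC1s against cDC2s turned to -1.04 without replicate 1 (5.69 without replicate 2). DESeq2 did not call Marco in any of the 3 comparisons in which edgeR did (adjusted p = 0.56, 0.15 and 0.51). Values that were not called and changed sign were, in macrophages against DCs, Cd36 (0.37 without the filter on deviations, -0.67 to 1.47 with a sample left out). In cDC1s against cDC2s these were Gas6 (0.0067 with DESeq2, -0.10 to 0.11 with a sample left out) and Mertk (-0.53 to 1.36), and in DCIR2 against CLEC10A cDC2s Mertk (-1.89 to 0.15). In mature DCs these were Axl (-0.010 to 0.94), Cd36 (-0.47 without cells of several gates, -0.73 to 1.01 with a sample left out) and Marco (0.13 without the filter on deviations). In pDCs these were Gas6 (2.16) and Marco (1.40) with DESeq2 and Timd4 (-5.61 to 0.28 with a sample left out). In the Siglec1 split these were Cd36 (-0.41 without the filter on deviations), Pros1 (0.10 without cells of several gates, 0.15 with at least 2 UMIs, -1.40 to 0.43 with a sample left out) and Timd4 (-0.13 with at least 2 UMIs, -0.082 to 0.18 with a sample left out). In the Cd207 split these were Axl (-0.63 with at least 2 UMIs, -0.70 to 1.122 with a sample left out), Gas6 (-0.66 without the filter on deviations, -2.86 to 3.30 with a sample left out) and Timd4 (0.036 without the cell rich in Siglec1). Calls were gained without the filter on low counts for Mertk (-1.18, adjusted p = 0.0011) and Cd36 (-1.44) between the cDC2 classes. The causes were not tested.

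The number of all genes called in the Siglec1 split was 1, and 8 with DESeq2, 63 without the filter on low counts, 13 without the filter on deviations and 0 without cells of several gates. In the Cd207 split it was 25, and 55, 159 and 13 with DESeq2, without the filter on low counts and without cells of several gates, and 11 with at least 2 UMIs. With a sample left out, which leaves the remaining sum assumed to vary like the other classes, counts were 3547 to 4002 of 5999 for macrophages against cDC1s, 2644 to 2952 of 6056 against all DCs, 1545 to 1593 of 4282 for cDC1s against cDC2s, 77 to 141 of 660 between the cDC2 classes, 1188 to 1344 of 3947 for mature DCs, 238 to 476 of 1150 for pDCs, 0 to 4 for the Siglec1 split and 3 to 6 for the Cd207 split. The replicate block, for the pairing of sums from the same sample, gave 6192, 6113, 4617, 880, 4031, 1064, 1 and 33 calls in the same order of comparisons and changed no call of the 8 genes. Few UMIs stood behind Gas6 and Pros1, and pDCs held 13 and 19 cells.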
